A study of Mus musculus with 6 samples.

Results

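The genes described here are the 45 protein-coding genes whose symbols begin with Nduf, of 16229 genes listed for these mouse hearts. The rule that picks them uses symbol and gene type. By role, 7 encode core subunits of respiratory complex I, 28 encode accessory subunits and 8 encode assembly factors. Of the other two, Ndufa4 was named as a complex I subunit but is now assigned to cytochrome c oxidase, and Ndufa4l2 is its paralogue. The annotation that accompanies the table gives the name of respiratory chain complex I to 35 of them, among 38 listed genes that carry it. The complex I genes encoded by mitochondrial DNA, and a few nuclear subunits such as Ndufa13, are not analysed here.

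Complex I is the entry point of the respiratory chain. It oxidises NADH, passes the electrons through a flavin and a chain of iron-sulfur clusters to ubiquinone, and pumps protons across the inner mitochondrial membrane. It is built from an N module that binds NADH, a Q module that reduces ubiquinone and a membrane-embedded P module that pumps protons. Assembly factors help to join these modules and are not kept in the finished enzyme. Heart muscle relies on oxidative phosphorylation and is rich in the complex.

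Poly-A RNA was sequenced from hearts of male wild-type C57BL/6 mice aged 8 to 10 weeks, an inbred laboratory strain, with 2 libraries in each of 3 groups. One group was untreated (replicates 8 and 9). A second received rivaroxaban, an inhibitor of coagulation factor Xa, at 3 mg/kg for 7 days (replicates 14 and 15), and the other received dabigatran, an inhibitor of factor IIa (thrombin), at 10 mg/kg for 7 days (replicates 10 and 12). The series concerns ischaemia-reperfusion injury, but the labels do not state whether untreated mice had surgery, whether the libraries of a group came from separate mice, or any batch or date. The p-values therefore measure only the spread between these samples, which may be technical.

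Sequencing depth ran from 27176892 to 43798222 reads a library over the genes listed. Levels are given as log2 CPM, a log2 read count that the authors scaled to a common library size, and genes with a mean of at least 0 were tested, 12981 in all. The samples are described as infarcted tissue with the tissue around it. Markers of heart muscle cells were very high, at 118900 to 125200 CPM summed over 12 genes, whereas the 4 listed neutrophil markers summed to only 0.953 to 1.61 CPM in every library. In such whole-tissue RNA, fewer cells of a type and less RNA per cell cannot be told apart.

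All 45 Nduf genes passed the filter on low values, with the lowest mean level, 4.54 log2 CPM, in Ndufaf2. Single genes were counted with at least 595 reads in every library. Together the Nduf genes took 1.68% of the reads in untreated replicate 8 and 1.62% in replicate 9. Their share was 1.59% and 1.61% in the rivaroxaban hearts (replicates 14 and 15), compared with 1.70% and 1.63% in the dabigatran hearts (replicates 10 and 12). The share was thus lowest in both rivaroxaban hearts, and the untreated and dabigatran hearts overlapped.

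Levels of different genes were compared per kilobase of the principal transcript. Ndufa4 stood highest at 1859 CPM per kb, followed by the accessory subunits Ndufb9, of the distal end of the membrane arm, at 1130 and Ndufb10 at 889 CPM per kb. Among the core subunits Ndufs7, at the ubiquinone pocket, was at 670 CPM per kb, and the lowest was Ndufs1, which carries several iron-sulfur clusters, at 169 CPM per kb. Every structural subunit measured lay above every assembly factor. The lowest subunit, Ndufb2, was at 138 CPM per kb, and the highest assembly factor, Ndufaf1, was at 44.2 CPM per kb. The bottom of the order was held by Ndufaf6, Ndufaf5 and Ndufaf7, at 22.4, 22.8 and 24.0 CPM per kb, whose ranges over the 6 libraries overlapped. Ndufa4l2, which is known for its induction by hypoxia, was at 28.9 CPM per kb, among the assembly factors and far below its paralogue.

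**Figure D1:**
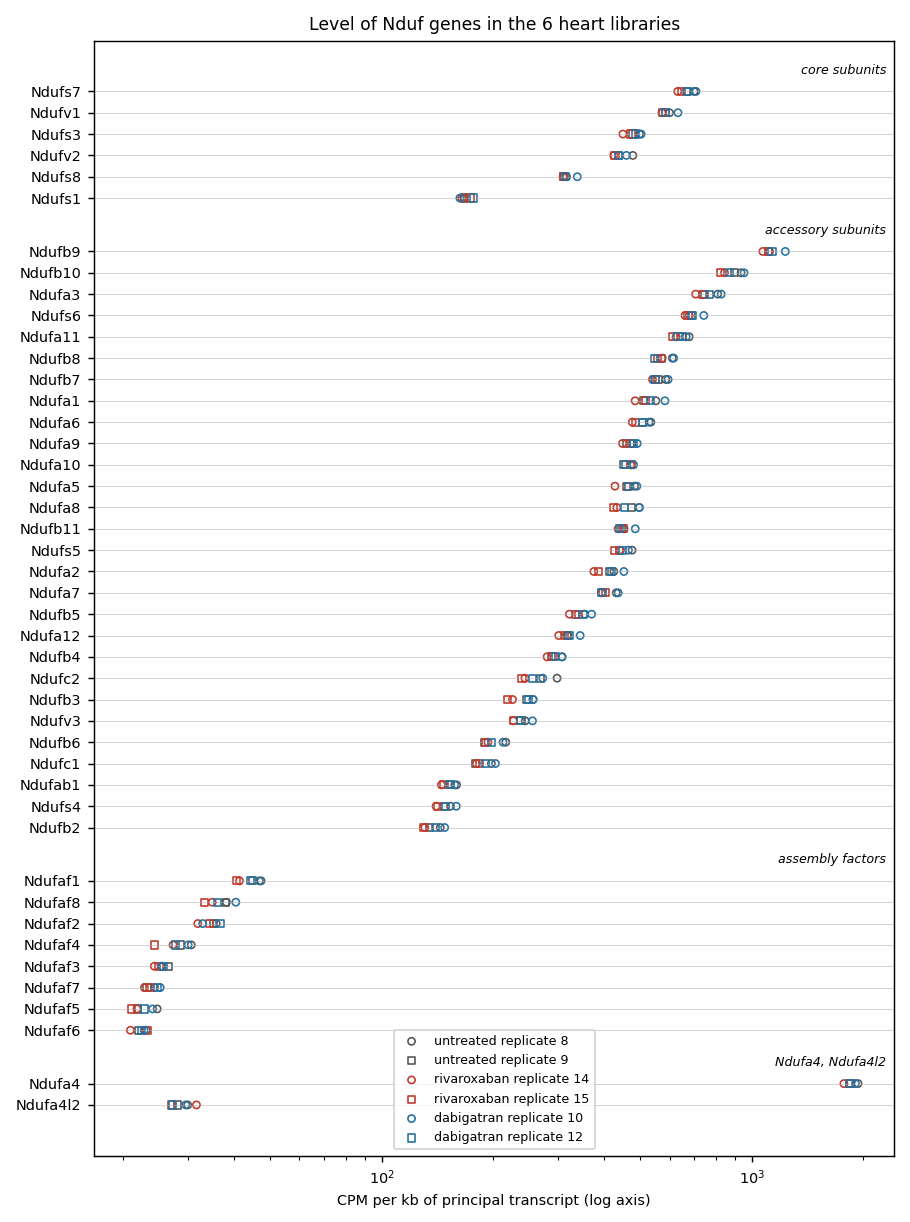
Level of the Nduf genes reported, in CPM per kb of its principal transcript (horizontal log axis), with 1 symbol per library, grouped by role. Assembly factors and Ndufa4l2 lie below 50 CPM per kb and all subunits above 100, while the 6 libraries of a gene lie close together.

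The Nduf genes differed little between libraries. From the lowest to the highest of the 6 hearts a gene spanned at most 0.33 (Ndufaf4) on the log2 scale, with a median of 0.17. The largest gaps between the libraries of a group were those of Ndufa4l2 in the rivaroxaban hearts, 0.22, of Ndufb6 in the untreated hearts, 0.19, and of Ndufaf5 in the untreated hearts, 0.18. For each gene the deviation from its own mean over the 6 hearts was taken. In the untreated hearts the median deviation of the Nduf genes was 0.059 for replicate 8 and -0.017 for replicate 9. With rivaroxaban it was -0.071 for replicate 14 and -0.042 for replicate 15, and with dabigatran 0.085 for replicate 10 and 0.0015 for replicate 12. Over all tested genes it stayed between -0.0028 and 0.0030 in every library.

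The hearts thus differed within groups as well as between them. Dabigatran replicate 10 was the highest library for 29 of the 45 genes and untreated replicate 8 for 11. The lowest library was rivaroxaban replicate 14 for 26 genes and rivaroxaban replicate 15 for 12. Within the untreated pair, replicate 8 exceeded replicate 9 in 41 Nduf genes, and within the dabigatran pair replicate 10 exceeded replicate 12 in 42. Rivaroxaban replicate 15 exceeded replicate 14 in 31. Over all tested genes these shares were 51.4%, 49.7% and 49.1%. Replicates 8 and 10 were also the least deeply sequenced libraries, with 28624427 and 27176892 reads. Rivaroxaban replicate 15 was close to them in depth, with 29028033 reads, but had a median deviation of -0.042. The deepest library, dabigatran replicate 12 with 43798222 reads, was at 0.0015. The part of depth in this order was not tested.

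**Figure D2:**
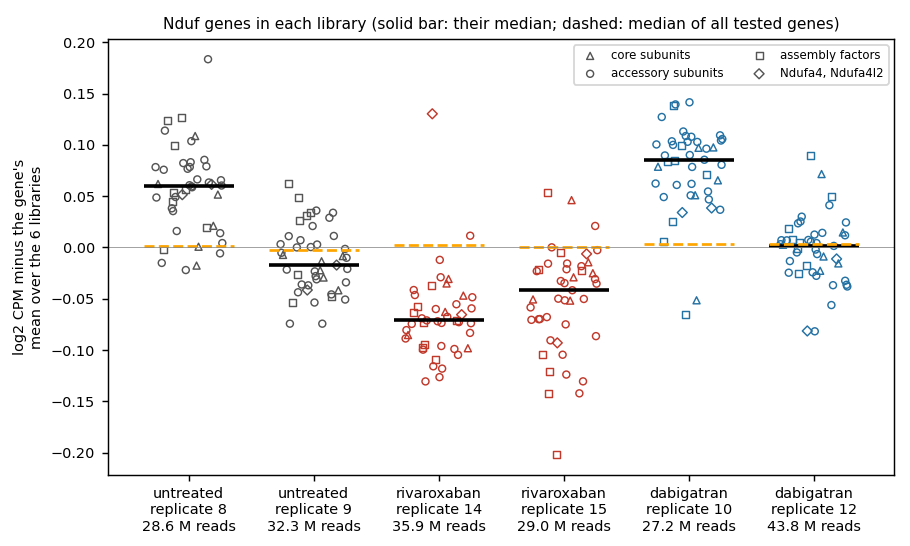
Deviation of the Nduf genes reported from its own mean over the 6 libraries (vertical axis, log2 CPM) by library, with symbols for roles, a solid bar at the median of the Nduf genes and a dashed bar at the median of all tested genes. The medians of both rivaroxaban libraries, -0.071 and -0.042, lie below those of the other 4, and dabigatran replicate 10 stands highest at 0.085.

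The nuclear genes of complex I are known targets of NRF1, GABPA, YY1 and the oestrogen-related receptors, so the 250 bases upstream of the RefSeq start (GRCm38.p6) were searched on both strands for short forms of their motifs. A promoter was matched for 39 of the 45 genes. The NRF1 core TGCGCA was found in 8 of them, or 20.5%, against 6.43% of 32851 promoters of all genes. The ETS site CCGGAAG of GABPA was found in 5 (12.8% against 6.91%), the AAGGTCA site of the oestrogen-related receptors in 3 (7.69% against 4.08%), and the YY1 site AAGATGGC in none (1.56% of all promoters). No motif contains another. In 26 promoters none was present. The Nduf windows had a median GC content of 57.6%, against 52.4% for all promoters, and the NRF1 and ETS letters contain CG. All listed promoters were kept for the background, but only 1 for each Nduf gene, so the sets are unlike. For 36 of the 39 windows the bases after the start matched a known transcript of the gene. The part of base composition in these shares was not tested. 4 windows are shown: Ndufc2 and Ndufaf4, the accessory subunit and the assembly factor with the largest difference with rivaroxaban, and Ndufb6 and Ndufs5, which with Ndufb4 are the 3 genes whose windows hold 2 different motifs. They lie at chr7:97399753-97400002 (Ndufc2, plus strand), chr4:24897833-24898082 (Ndufaf4, plus), chr4:40279422-40279671 (Ndufb6, minus) and chr4:123718187-123718436 (Ndufs5, minus), and are written 5′ to 3′ with matches in capitals.
Ndufc2: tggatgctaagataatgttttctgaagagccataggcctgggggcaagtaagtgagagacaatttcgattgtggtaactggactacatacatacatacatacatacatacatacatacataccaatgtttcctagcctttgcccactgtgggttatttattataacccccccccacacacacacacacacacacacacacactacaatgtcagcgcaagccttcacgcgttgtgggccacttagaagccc
Ndufaf4: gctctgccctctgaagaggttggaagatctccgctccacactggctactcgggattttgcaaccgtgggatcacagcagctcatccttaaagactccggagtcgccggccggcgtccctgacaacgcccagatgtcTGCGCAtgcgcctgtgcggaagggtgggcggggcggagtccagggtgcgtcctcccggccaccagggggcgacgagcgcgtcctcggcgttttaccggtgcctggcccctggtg
Ndufb6: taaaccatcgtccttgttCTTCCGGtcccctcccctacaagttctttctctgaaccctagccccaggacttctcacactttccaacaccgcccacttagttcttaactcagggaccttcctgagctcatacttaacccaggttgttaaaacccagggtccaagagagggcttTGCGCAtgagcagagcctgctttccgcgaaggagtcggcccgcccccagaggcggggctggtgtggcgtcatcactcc
Ndufs5: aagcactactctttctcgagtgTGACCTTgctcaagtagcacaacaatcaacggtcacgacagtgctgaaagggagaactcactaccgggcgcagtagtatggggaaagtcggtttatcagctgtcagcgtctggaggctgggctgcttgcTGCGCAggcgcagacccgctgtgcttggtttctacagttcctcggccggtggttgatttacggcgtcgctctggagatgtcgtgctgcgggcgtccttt
In capitals, Ndufaf4 shows an NRF1 core, Ndufb6 an ETS site read on the other strand and an NRF1 core, and Ndufs5 a receptor site read on the other strand and an NRF1 core. Ndufc2 shows none, and these letters in a window are no evidence of binding. The 13 genes with at least 1 motif had a median log2 difference of -0.083 for rivaroxaban against untreated hearts, and the 26 without had -0.086. For dabigatran the medians were 0.0052 and 0.012.

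The first comparison asked whether the factor Xa inhibitor moved the complex I genes. No Nduf gene passed the test in rivaroxaban-treated against untreated hearts (0 of 45 at an adjusted p under 0.05 with limma, against 2.46% of all tested genes). At an unadjusted p under 0.05 there were 8, all lower with rivaroxaban, or 17.8%, where 17.2% of all tested genes lay under it in either direction. The estimates leaned one way: 41 of 45 log2 differences were below 0, with a median of -0.080, where 48.5% of all tested genes were below 0 with a median of 0.0050. In 27 Nduf genes (60.0%) both rivaroxaban hearts lay below both untreated hearts, against 24.5% of all tested genes. The differences were small, since the 95% intervals over all 45 genes spanned only -0.36 to 0.21, or -22.2% to 15.9% of the untreated level.

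How far the estimates leaned depended on single libraries. Without untreated replicate 8, 34 genes were below 0 and the median was -0.037. Without untreated replicate 9 the number below 0 was 42 and the median was -0.12. The number was 39 without rivaroxaban replicate 14 and 42 without rivaroxaban replicate 15, with medians of -0.060 and -0.090.

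Among the core subunits with rivaroxaban, 5 of 7 estimates were below 0, with a median of -0.020, and none had an unadjusted p under 0.05. The median was -0.052 without untreated replicate 9, -0.037 without rivaroxaban replicate 15, -6.0e-04 without untreated replicate 8, and 0.0037 with equal medians within classes of level, so its sign depends on the setting. Ndufv2, an iron-sulfur subunit of the N module, was at 9.66 and 9.53 log2 CPM in untreated hearts and 9.49 and 9.50 in rivaroxaban hearts, a difference of -0.10 (SE 0.056, limma adjusted p = 0.389). Ndufs7, next to the ubiquinone pocket, was at 9.05 and 8.98 untreated and 8.90 and 8.94 with rivaroxaban, a difference of -0.095 (SE 0.051). Ndufs3 of the Q module was at 9.03 and 8.97 untreated and 8.88 and 8.95 with rivaroxaban, a difference of -0.083 (SE 0.051). In these 3 genes both rivaroxaban hearts lay just below both untreated hearts.

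Other core subunits overlapped between the groups. Ndufv1, which binds NADH and the flavin, differed by -0.020 (SE 0.054), and Ndufs8, which holds iron-sulfur clusters on the way to ubiquinone, by -0.016 (SE 0.052). Ndufs1, with 8.79 and 8.80 untreated and 8.78 and 8.86 with rivaroxaban, differed by 0.021 (SE 0.056). It was among the few Nduf genes with an estimate above 0, and its sign turned without rivaroxaban replicate 15, to -0.020. Ndufs1 overlaps Eef1b2 on the other strand, and whether reads were counted by strand is not given in the sources used here.

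The accessory subunits held the lowest p-values. Of 28 genes, 27 were below 0 with rivaroxaban, the median was -0.082, 6 had an unadjusted p under 0.05 (all tested genes 17.2%, either direction), and in 18 both rivaroxaban hearts lay below both untreated hearts (all tested genes 24.5%). The median was -0.12 without untreated replicate 9 and -0.046 without untreated replicate 8. Ndufc2 (ENSMUSG00000030647), a small subunit of the membrane arm whose upstream window is shown above, lies on chromosome 7 from 97400003 to 97407802 in GRCm38. It was at 7.67 and 7.52 log2 CPM in untreated hearts and 7.38 and 7.36 with rivaroxaban, with dabigatran hearts between them at 7.54 and 7.45. The difference of rivaroxaban from untreated was -0.23 (SE 0.061), or -14.5% with a 95% interval of -22.2% to -6.09% (limma adjusted p = 0.0887). This was the lowest adjusted p of any Nduf gene in this comparison and lies above the threshold.

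Ndufb3 (ENSMUSG00000026032; chromosome 1 from 58586384 to 58595964), a subunit of the distal membrane arm, was at 7.61 and 7.56 untreated and 7.43 and 7.39 with rivaroxaban, a difference of -0.18 (SE 0.051, limma adjusted p = 0.105). Ndufa8 (ENSMUSG00000026895; chromosome 2 from 36036326 to 36049406), which faces the intermembrane space and is held by disulfides, was at 8.74 and 8.67 untreated and 8.54 and 8.51 with rivaroxaban, a difference of -0.18 (SE 0.057, limma adjusted p = 0.132). Both rivaroxaban hearts lay below the other 4 hearts for both genes. The other accessory subunits with an unadjusted p under 0.05 were Ndufa2, of the N module, at -0.14, Ndufb10, also of the intermembrane face, at -0.14, and Ndufa6 at -0.11.

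A single accessory subunit had an estimate above 0. Ndufa10, which folds like a nucleoside kinase and sits on the membrane arm, was at 9.90 and 9.83 untreated and 9.90 and 9.90 with rivaroxaban, a difference of 0.035 (SE 0.050, limma adjusted p = 0.765). The medians by module were -0.071 for the 10 N-module genes, -0.054 for the 6 of the Q module, -0.092 for the 8 of the proximal and -0.067 for the 10 of the distal P module. These ranges overlap widely, and no difference between modules was tested. Ndufab1, the mitochondrial acyl carrier protein, which also serves lipoic acid synthesis, differed by -0.099 (SE 0.048).

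The remaining accessory subunits lay between these. Ndufs4, whose loss in mice is a widely used model of complex I deficiency, was at 8.03 and 7.97 untreated, 7.90 and 7.91 with rivaroxaban and 8.08 and 7.98 with dabigatran, so that the rivaroxaban hearts were below the other 4. Its difference with rivaroxaban was -0.097 (SE 0.052). Ndufv3, a small N-module subunit, was at 8.60 and 8.56 untreated and 8.49 in both rivaroxaban hearts, a difference of -0.088 (SE 0.052), also without overlap. Ndufs5, whose upstream window is shown above, was at 7.96 and 7.85 untreated and 7.85 and 7.80 with rivaroxaban, a difference of -0.080 (SE 0.055).

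Other accessory subunits overlapped between untreated and rivaroxaban hearts. Ndufb6, whose upstream window is also shown above, was at 7.16 and 6.97 untreated and 7.00 and 6.97 with rivaroxaban, a difference of -0.078 (SE 0.068) that rests on untreated replicate 8. Ndufa1, encoded on the X chromosome, was at 7.85 and 7.74 untreated and 7.67 and 7.76 with rivaroxaban, a difference of -0.084 (SE 0.063). Ndufb11, also X-linked, differed by -0.017 (SE 0.056), the value nearest 0 among the distal P-module genes, and it overlaps Rbm10 on the other strand. Ndufa9 differed by -0.025 (SE 0.050). Ndufs6, Ndufb5 and Ndufa3 overlap Mrpl36, Mrpl47 and Tfpt on the other strand, and Ndufb4 has a near-identical copy, so that their counts may hold reads of those genes. The same limit holds for further Nduf genes, among them some with the lowest p-values. Ndufa2 overlaps Tmco6 on the other strand, and Ndufc2 and Ndufb9 overlap Gm16053 and Gm49356 on the same strand.

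All 8 assembly factors had estimates below 0 with rivaroxaban, where 48.5% of all tested genes did, with a median of -0.11. In 6 of them both rivaroxaban hearts lay below both untreated hearts, against 24.5% of all tested genes. Ndufaf4 (ENSMUSG00000028261; chromosome 4 from 24898083 to 24905001), which works with Ndufaf3 on the Q module, was at 6.80 and 6.70 untreated and 6.63 and 6.47 with rivaroxaban, a difference of -0.20 (SE 0.070, limma adjusted p = 0.182). Ndufaf1 (ENSMUSG00000027305; chromosome 2 from 119655446 to 119662827), part of the assembly complex for the membrane arm, was at 6.10 and 6.03 untreated and 5.91 and 5.88 with rivaroxaban, a difference of -0.17 (SE 0.061, limma adjusted p = 0.183). These 2 had an unadjusted p under 0.05, and neither passed the test.

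Ndufaf8, which stabilises Ndufaf5, was at 4.89 in both untreated hearts and 4.77 and 4.70 with rivaroxaban, a difference of -0.16 (SE 0.078). Ndufaf5, which hydroxylates an arginine of Ndufs7, differed by -0.12 (SE 0.082) and Ndufaf2, a paralogue of Ndufa12 that binds a late intermediate, by -0.10 (SE 0.083). Ndufaf3 differed by -0.073 (SE 0.065), and it overlaps Impdh2 on the other strand. Ndufaf7, a protein methyltransferase, and Ndufaf6 overlapped between the groups and differed by -0.033 (SE 0.064) and -0.032 (SE 0.080). With 595 to 4389 reads per library, the assembly factors were thinly counted beside most subunits. Their median SE was 0.074, against 0.055 for all 45.

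Outside the complex, Ndufa4 was at 9.78 and 9.70 untreated and 9.65 and 9.71 with rivaroxaban, a difference of -0.058 (SE 0.051). Ndufa4l2 was at 4.80 and 4.71 untreated and 4.88 and 4.66 with rivaroxaban, a difference of 0.014 (SE 0.090). In both genes the groups overlapped, and the rivaroxaban hearts were the highest and the lowest library for Ndufa4l2.

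**Figure D3:**
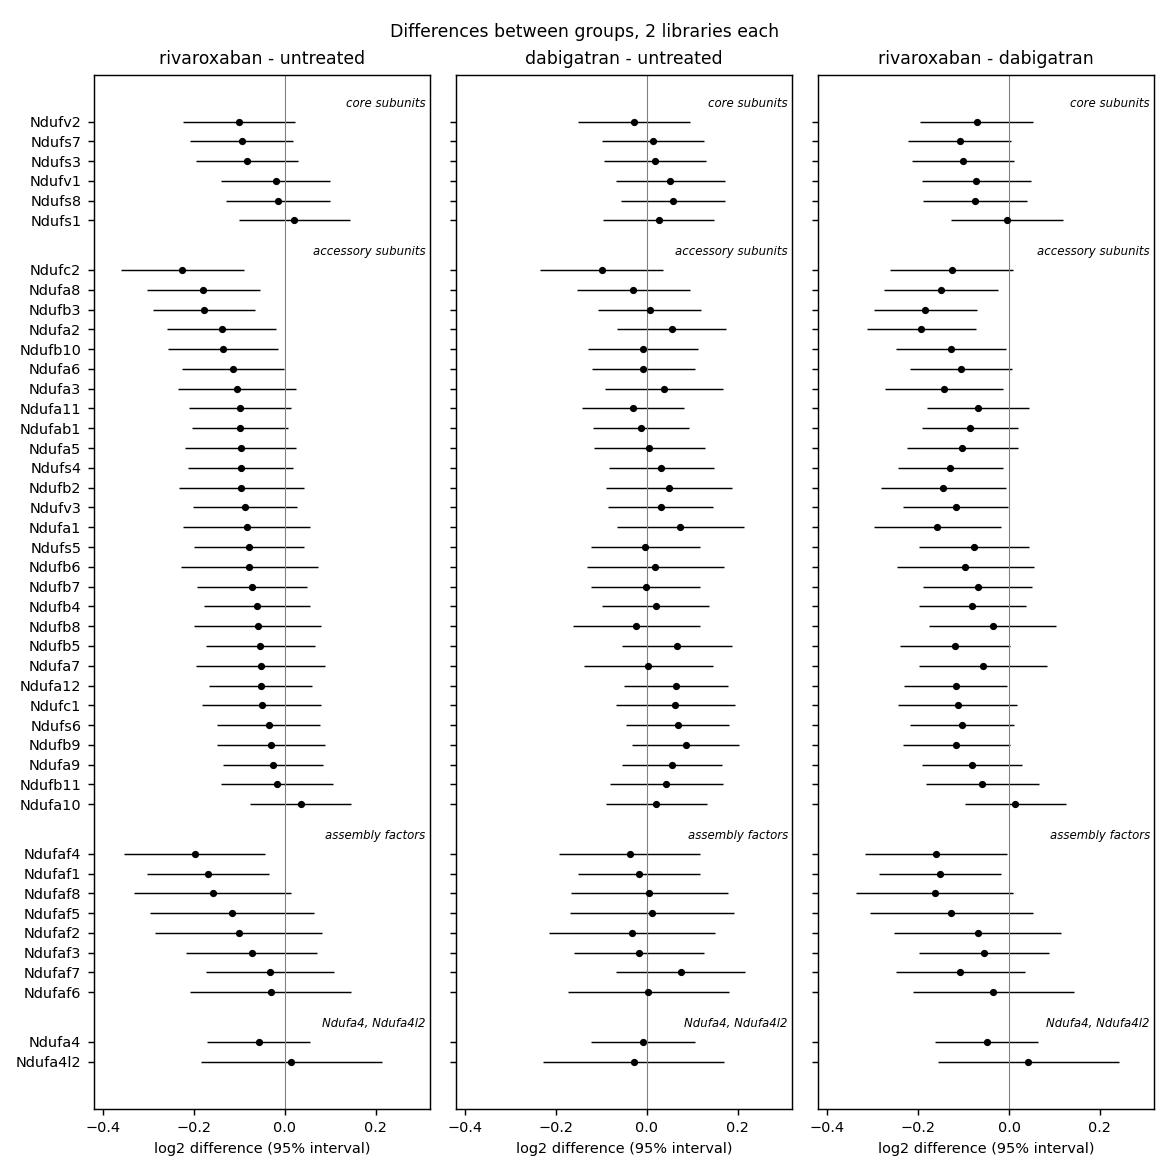
Log2 difference of the Nduf genes reported (dots) with its 95% interval (lines) for rivaroxaban minus untreated, dabigatran minus untreated and rivaroxaban minus dabigatran, 2 libraries a group, grouped by role. With rivaroxaban most dots lie left of 0 against untreated and dabigatran hearts, with dabigatran they lie on both sides, and no gene passed the adjusted threshold.

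The second comparison asked the same of the factor IIa inhibitor, with the same untreated hearts. No Nduf gene passed the test with dabigatran (0 of 45 with limma, against 1.88% of all tested genes), and none had an unadjusted p under 0.05, against 14.7%. The estimates lay on both sides of 0, with 29 above, 16 below, a median of 0.013 and a range from -0.0997 to 0.085. In 5 genes (11.1%) both dabigatran hearts lay above both untreated hearts, against 22.8% of all tested genes, and in 0 both lay below, against 20.8%. The intervals spanned -0.24 to 0.22, or -15.0% to 16.1%. The median was -0.022 without untreated replicate 9, -0.016 without dabigatran replicate 10, 0.048 without untreated replicate 8 and 0.055 without dabigatran replicate 12, so its sign changed with single libraries.

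The lowest p-values above 0 with dabigatran were those of Ndufb9, Ndufs6 and Ndufa12. Ndufb9 (ENSMUSG00000022354) was at 9.62 and 9.61 log2 CPM untreated and 9.76 and 9.64 with dabigatran, a difference of 0.085 (SE 0.054, limma adjusted p = 0.510). Ndufs6, a zinc-binding subunit of the N module, was at 8.59 and 8.61 untreated and 8.72 and 8.62 with dabigatran, a difference of 0.068 (SE 0.051). Ndufa12, the subunit that replaces Ndufaf2 in the finished enzyme, differed by 0.064 (SE 0.052). In all 3 the libraries did not overlap, with dabigatran replicate 12 only just above the untreated hearts. Ndufa9, next to the ubiquinone pocket, and Ndufaf7 were the remaining genes without overlap.

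Below 0 with dabigatran, Ndufc2 was again first, at -0.0997 (SE 0.061, limma adjusted p = 0.499). Its dabigatran hearts at 7.54 and 7.45 overlapped the untreated hearts at 7.67 and 7.52. Ndufaf4 differed by -0.038 (SE 0.070) and Ndufa11, a membrane-arm subunit, by -0.031 (SE 0.051). Both of these signs turned without untreated replicate 8, to 0.0099 and 0.0012, and without dabigatran replicate 12, to 0.020 and 0.0057.

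By role, the dabigatran medians were 0.026 for the 7 core subunits, 0.020 for the 28 accessory subunits and -0.0072 for the 8 assembly factors. Among the core subunits Ndufs8 was highest at 0.058 and Ndufv1 next at 0.051. Ndufs1, Ndufs3 and Ndufs7 differed by 0.026, 0.018 and 0.013, and Ndufv2 by -0.029, with SEs of 0.051 to 0.056. Among the assembly factors Ndufaf7 was highest, at 5.41 and 5.34 untreated and 5.46 and 5.44 with dabigatran, a difference of 0.074 (SE 0.064). Ndufaf5, Ndufaf8 and Ndufaf6 differed by 0.010, 0.0051 and 0.0031, and Ndufaf3, Ndufaf1 and Ndufaf2 by -0.017, -0.018 and -0.033. Ndufa4 and Ndufa4l2 differed by -0.0085 and -0.029.

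The drugs were then set against each other, at 3 and 10 mg/kg, so that drug and dose cannot be told apart. No Nduf gene passed the test (0 of 45 with limma, against 0.077% of all tested genes, which is 10 genes). At an unadjusted p under 0.05 there were 12, all lower with rivaroxaban, or 26.7%, against 8.43% of all tested genes in either direction. Of the 45 estimates 43 were below 0, with a median of -0.10, or -6.88%, where 49.6% of all tested genes were below 0. In 33 genes (73.3%) both rivaroxaban hearts lay below both dabigatran hearts, against 20.4% of all tested genes. The size of the median depended on single libraries, at -0.064 without dabigatran replicate 10 and -0.14 without dabigatran replicate 12.

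Ndufb3 had the lowest p between the drugs, with 7.43 and 7.39 log2 CPM in the rivaroxaban hearts and 7.61 and 7.57 in the dabigatran hearts, a difference of -0.18 (SE 0.051, limma adjusted p = 0.328). Ndufa2 (ENSMUSG00000014294) was at 7.74 and 7.78 with rivaroxaban and 8.01 and 7.90 with dabigatran, a difference of -0.19 (SE 0.054, limma adjusted p = 0.336). Ndufa8 differed by -0.15 (SE 0.057, limma adjusted p = 0.506). None of these passed the test, although the libraries did not overlap. Both estimates above 0, Ndufa4l2 at 0.042 (SE 0.090) and Ndufa10 at 0.014 (SE 0.050), came from genes whose libraries overlapped, and both turned below 0 without dabigatran replicate 12, to -0.015 and -0.021. Ndufa4l2 did so without rivaroxaban replicate 14 as well, at -0.069.

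By role, the medians between the drugs were -0.072 for core subunits, -0.11 for accessory subunits and -0.12 for assembly factors, and all 7 core subunits and all 8 assembly factors were below 0. Ndufs7 and Ndufs3 differed by -0.11 and -0.10, Ndufs8, Ndufv1 and Ndufv2 by -0.074, -0.072 and -0.071, and Ndufs1 by -0.0045. Among the assembly factors Ndufaf8, Ndufaf4 and Ndufaf1 differed by -0.16, -0.16 and -0.15, Ndufaf5 and Ndufaf7 by -0.13 and -0.11, and Ndufaf2, Ndufaf3 and Ndufaf6 by -0.069, -0.055 and -0.035. In 25 of the 45 Nduf genes both rivaroxaban hearts lay below all 4 other hearts, against 10.4% of all tested genes. The comparisons share libraries, so their counts are not independent of each other.

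The Nduf genes differ from the average gene in length and level. Their principal transcripts have a median of 908 bases against 2976.5 for 12366 tested genes with a length, and their median level is 8.45 log2 CPM against 4.47. Other short genes leaned the same way with rivaroxaban. Among 744 other genes of up to 1000 bases, 71.1% were below 0 against untreated hearts, with a median of -0.065, and the 26 Nduf genes of that length had a median of -0.090. Among 2648 other genes of 1000 to 2000 bases the median was -0.044, against -0.054 for 15 Nduf genes. From 2000 to 4000 bases other genes had a median of 0.0078, against -0.039 for 4 Nduf genes, and over 4000 bases, where no Nduf gene falls, 0.050. By level, other genes at 4 to 6 log2 CPM had a median of 0.018, against -0.096 for 9 Nduf genes. At 6 to 8 log2 CPM it was -0.013 against -0.091 for 10, and at 8 to 10 it was -0.039 against -0.062 for 25.

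Between the drugs the Nduf genes lay further from other genes of their length, at -0.10 against -0.058 up to 1000 bases and -0.11 against -0.022 from 1000 to 2000 bases. When each library was set to equal medians within classes of length, 38 of 45 Nduf genes were below 0 for rivaroxaban against untreated hearts, with a median of -0.049, and 42 between the drugs, with a median of -0.075. Within classes of level the numbers were 38 and 41 and the medians -0.059 and -0.073. The part of transcript length and level in the lower Nduf estimates was otherwise not tested.

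**Figure D4:**
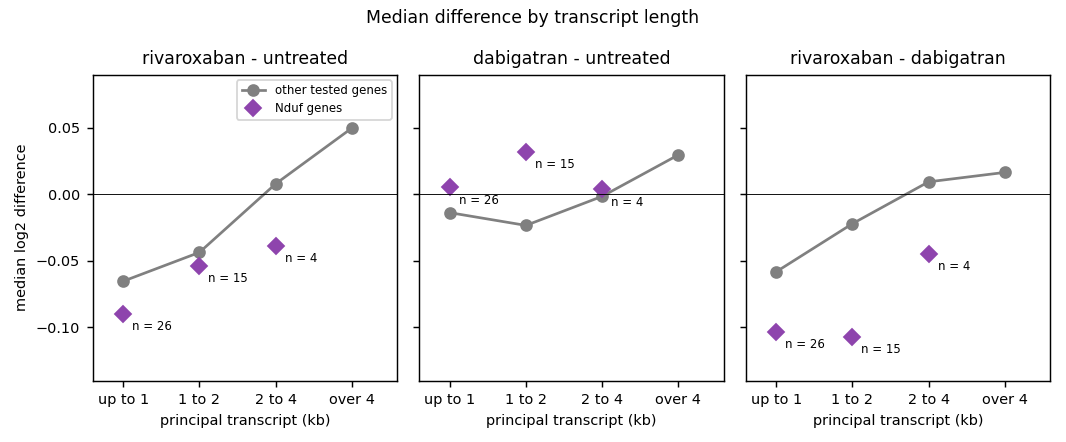
Median log2 difference (vertical axis) by length of the principal transcript in kb (horizontal axis) for the Nduf genes (diamonds, with their number) and for all other tested genes (circles joined by lines), in each comparison. With rivaroxaban the other genes go from -0.065 in the shortest class to 0.050 in the longest, and the 26 shortest Nduf genes lie at -0.090.

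Other genes of the respiratory chain and of complex I assembly gave estimates of similar size. Of 36 tested genes of complexes II to V and cytochrome c, none passed the test in any comparison, and the medians were -0.074 for rivaroxaban, 0.015 for dabigatran and -0.085 between the drugs. Their estimates leaned the same way, with 33 below 0 for rivaroxaban, 13 for dabigatran and 36 between the drugs. In 20 both rivaroxaban hearts lay below both untreated hearts, against 24.5% of all tested genes. In 23 they lay below both dabigatran hearts, against 20.4%. The 9 tested assembly factors of complex I without an Nduf symbol were all below 0 with rivaroxaban, with a median of -0.070 and none called. The lowest p among them was that of Timmdc1, a membrane-arm assembly factor, at -0.16 (SE 0.060, limma adjusted p = 0.194). The 12 markers of heart muscle cells had medians of -0.031, 0.014 and -0.052, with 8, 4 and 12 below 0 and none called.

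Of 18 listed regulators of respiratory genes, 1 passed the test. Ppara, a nuclear receptor that drives fatty acid oxidation genes, was at 4.72 and 4.70 log2 CPM in untreated hearts, 5.14 and 5.31 with rivaroxaban and 5.25 and 5.04 with dabigatran. It rose by 0.52 (SE 0.087, limma adjusted p = 0.0126) and 0.44 (SE 0.087, limma adjusted p = 0.0363), with no overlap. Of the factors whose motifs were searched above, Gabpa differed by 0.17 (SE 0.068), Nrf1 by 0.073 (SE 0.080) and Yy1 by 0.073 (SE 0.064) with rivaroxaban. The oestrogen-related receptors Esrra, Esrrb and Esrrg differed by -0.10 (SE 0.062), -0.026 (SE 0.11) and -0.063 (SE 0.058), and none of these factors passed. With rivaroxaban the lowest p-values after Ppara were those of Mlxipl, a glucose-responsive transcription factor, at 0.25 (SE 0.070, limma adjusted p = 0.0960), Pprc1, a coactivator related to PGC-1, at 0.23 (SE 0.082, limma adjusted p = 0.182), and Gabpa (limma adjusted p = 0.239). Tfam, which packages and transcribes mitochondrial DNA, differed by -0.14 (SE 0.060, limma adjusted p = 0.264). With dabigatran Mlxipl differed by 0.30 (SE 0.070, limma adjusted p = 0.0582) and Pprc1 by 0.24 (SE 0.082, limma adjusted p = 0.192). Ppargc1a, which encodes a PGC-1 coactivator, differed by 0.38 with dabigatran (SE 0.15, limma adjusted p = 0.247). This rests mostly on dabigatran replicate 10, at 7.05 log2 CPM, against 6.42 in replicate 12 and 6.38 and 6.33 in untreated hearts. The related Ppargc1b differed by -0.30 between rivaroxaban and dabigatran (SE 0.087, limma adjusted p = 0.347). 
Some markers of other cell types also moved with the groups. In the mesothelium, the cell layer over the heart, most did. Of 8 tested markers, 6 passed the test as lower and 1 as higher with rivaroxaban, where 2.46% of all tested genes passed. With dabigatran 3 passed as lower and 1 as higher, where 1.88% of all tested genes passed. In both comparisons 7 of the 8 estimates were below 0. The markers summed to 86.0 to 89.6 CPM in untreated, 48.0 to 56.4 in rivaroxaban and 60.3 to 62.1 in dabigatran hearts, with none listed at 0. Of 9 endothelial markers, Emcn fell by 0.43 and Eng rose by 0.26 with rivaroxaban, while Eng and Flt1 rose with dabigatran (limma adjusted p = 0.00336 and 0.0278 for the first 2), and the list summed to 1408 to 1468 CPM in untreated, 1483 to 1554 in rivaroxaban and 1505 to 1568 in dabigatran hearts. Among T-cell markers Cd247 fell by 1.29 with rivaroxaban (limma adjusted p = 0.0149), 1 of 2 tested, and the 6 listed summed to 5.23 to 10.3 CPM over the 6 hearts. The other tested, Cd4, differed by 0.096 (SE 0.31) with rivaroxaban, and the rest lay below the filter, so this is a change of a single gene. The only red-cell marker tested, Slc4a1, rose by 2.12 with dabigatran (limma adjusted p = 0.0487). With rivaroxaban it differed by 1.67 (SE 0.47, limma adjusted p = 0.0982), and between rivaroxaban and dabigatran by -0.46 (SE 0.47). Its untreated levels were low and far apart, at -0.20 and -1.85 log2 CPM. None of 8 fibroblast markers passed. Between the drugs 4 had an unadjusted p under 0.05, all higher with rivaroxaban, where 8.43% of all tested genes lay under it. Against untreated hearts their medians were 0.047 with rivaroxaban, with 4 of 8 below 0, and -0.13 with dabigatran, with 6 of 8 below 0. The accessory subunits alone summed to 9864 to 10980 CPM, and the part of these cell types in their differences was not tested.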

How the data were processed

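Per the labels' protocols, libraries came from purified poly-A RNA and a kit that keeps the strand. Per the submitters' processing notes, the tools were edgeR, STAR, Trim Galore, FastQC and bcl2fastq, with build mm10. Not given in the sources used here were versions, the read counter, its strand setting and its annotation. The deposited values are log2 CPM, scaled by TMM by the authors, per the name under which they were deposited. All libraries share a floor of -4.04, which draws low values together. After subtracting it, 100% of values below 200 steps were whole reads within 0.02 reads, which gave the depths. Intervals cover the spread between libraries only.

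Samples were grouped by the treatment label. A linear model of 3 groups was fitted, for the 12981 genes averaging 0 log2 CPM or more, with limma 3.58.1 in R 4.3.3 (mean-variance trend, 3 residual and 7.75 prior degrees of freedom), and was tested on simulated data. Tests were two-sided, with Benjamini-Hochberg adjustment over all tested genes and a threshold of 0.05. Lengths and places are from GENCODE M21 on GRCm38. The members and lists were chosen with earlier results of these data known. Genes named are those with the 3 lowest p-values each way per comparison, core subunits, all assembly factors, Ndufa4 and Ndufa4l2, and the extremes of level and of within-group gap. Other genes were named after their values were seen. A gene that met the rule is not reported here or drawn, and the counts and medians include it. Of 19 other settings tried, 3 were added after seeing the data: 1 without untreated replicate 8 and dabigatran replicate 10, and the equal medians within classes of length or of level.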

Additional observations from a re-analysis of the deposited data

How the results depend on the processing

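No Nduf gene was called in any comparison under any of the 19 alternatives. Of 16 differences of single genes, 5 turned sign somewhere. Ndufs1 with rivaroxaban was at -0.0058 with equal medians within length classes and at -0.020 to 0.062 with 1 library left out. Leaving out 1 library gave -0.068 to 0.0057 for Ndufa11 and -0.096 to 0.020 for Ndufaf4 with dabigatran, and -0.069 to 0.154 for Ndufa4l2 and -0.021 to 0.049 for Ndufa10 between the drugs. It gave medians of -0.022 to 0.070 for accessory subunits with dabigatran and -0.13 to -0.035 for core subunits between the drugs. Over all Nduf genes these medians were -0.12 to -0.037 for rivaroxaban, -0.022 to 0.055 for dabigatran and -0.14 to -0.064 between the drugs, and with quantile normalisation they were -0.056, -0.0069 and -0.066. Where a left-out library leaves a single heart in a group, that heart was assumed to vary like the other groups.

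With voom on recovered reads, 7, 0 and 10 Nduf genes had an unadjusted p under 0.05, against 8, 0 and 12. Without a mean-variance trend no gene of the whole table was called in any comparison, so the shares of called genes depend on that choice. No paired analysis was possible because the groups share no replicate number. With 2 libraries a group, the median SE of 0.055 for a Nduf gene limits what can be seen.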
